A study of Homo sapiens with 64 samples.

Results

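To describe protein binding beside a centromere and on an unplaced sequence, all peaks at a stretch of chromosome 16 and on a scaffold of chromosome 9 were collected. A peak is a position where reads from an immunoprecipitate were enriched. The members were chosen by position alone, as every peak on chromosome 16 between 46380000 and 46440000 and every peak on the scaffold chr9_gl000199_random. Of 2442 peaks in 24 lists, 225 (9.21%) met this rule, 176 on chromosome 16 and 49 on the scaffold. The members nearest to the edges of the chromosome 16 window began 6368 bp after its start and ended 4429 bp before its end. Elsewhere on chromosome 16, 2 peaks were called, both for FoxM1 at 9 h. Where peaks were called chose the loci, so their number is a description and was not tested.

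Chromatin immunoprecipitation followed by sequencing was performed in U2OS, a human cell line established from an osteosarcoma, and in shTUBG U2OS, a population of that line that stably expresses an shRNA against TUBG, the genes of γ-tubulin. Cells of both lines were asynchronous or were harvested 3, 7 or 9 h after release from a double thymidine block, which holds cells at the start of S phase. Chromatin cut with micrococcal nuclease was precipitated for γ-tubulin and PCNA in both lines, and for Mcm5 and FoxM1 in U2OS alone. Each of the 24 lists covered both samples of its group, so replicate errors cannot be given, and the number of reads behind a list is unknown. The lists held from 17 to 244 peaks, and 264 peaks were mitochondrial, among them all 17 of PCNA in U2OS at 7 h.

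The DNA beside human centromeres is rich in satellite and other repeats, is packed mostly as heterochromatin and is often copied late in S phase. The chromosome 16 locus lies at the first assembled sequence of the long arm after the centromere, and the scaffold is sequence assigned to chromosome 9 without a place on it. Short reads from repeats can match several copies, and how such reads were treated was not stated. No genome of the build named in the processing notes (hg19) was used here, so the repeat content of the loci was not checked and both are called by their position. Mcm5 is a subunit of the ring-shaped helicase that is loaded at replication origins. PCNA is the sliding clamp that holds DNA polymerase on the template. γ-Tubulin nucleates microtubules and is also found in the nucleus, and FoxM1 is a transcription factor that drives genes of cell division.

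The 176 chromosome 16 peaks lay between 46386368 and 46435571, a span of 49204 bp, and came from 17 lists. Their widths ranged from 200 to 1866 bp with a median of 364 bp. After peaks that shared at least 1 bp were merged across lists, they formed 30 regions, of which 6 were called in 1 list. All 30 held a FoxM1 peak at 9 h, and each of the 146 peaks of the other lists touched a FoxM1 peak of 9 h. FoxM1 at 9 h covered 48.9% of the span, so a touch by 1 bp is easily met. Peaks elsewhere were not counted in this way. FoxM1 at 3 h, which is 1 list, was called in 24 regions. With all times and both lines pooled, PCNA was called in 21 and γ-tubulin in 15. Mcm5 was called in 5 with all times of U2OS pooled, so these counts rest on unlike numbers of lists. The 5 regions with Mcm5 held all 4 proteins.

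**Figure D1:**
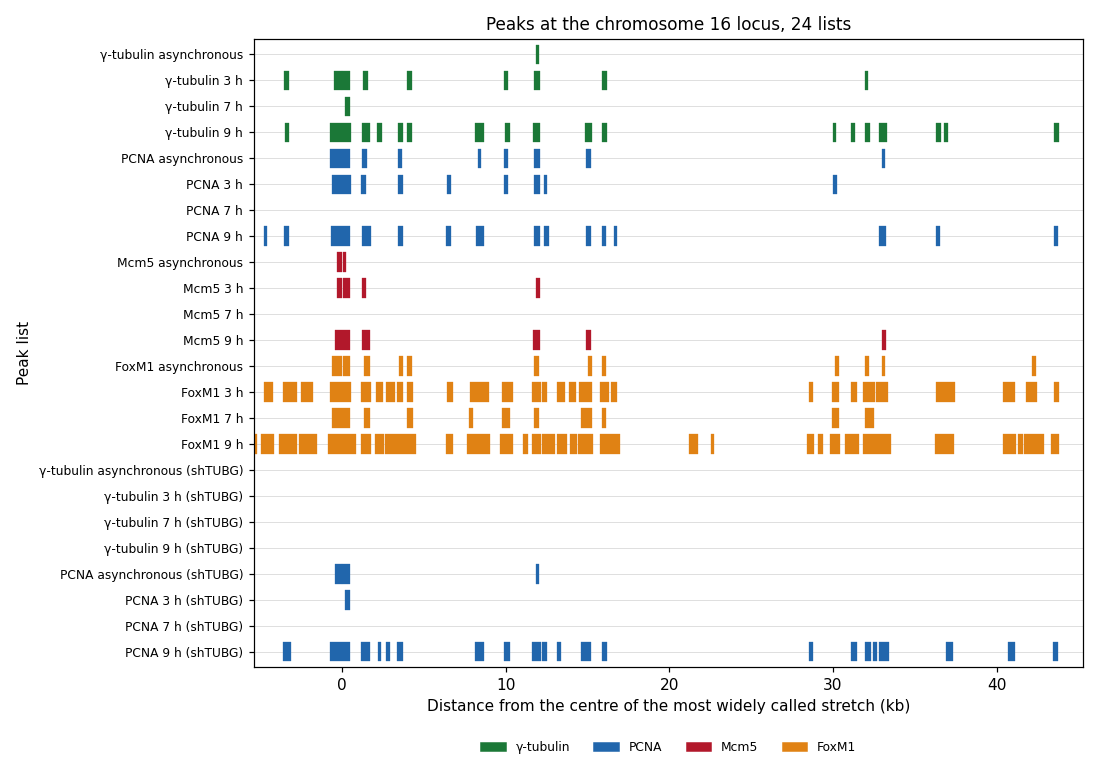
Peaks at the chromosome 16 locus in each of the 24 lists, drawn to scale against the distance in kb from the centre of the stretch called in the most lists. Colours mark the antibody. Peaks form a left and a right group, and in the space between them the marks belong to FoxM1 at 9 h.

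Peaks at the chromosome 16 locus fell into 2 groups. The left group reached from 46386368 to 46408568 and held 126 peaks. The right group, from 46420281 to 46435571, held 46 peaks. Without the FoxM1 list of 9 h, no peak lay in the 11712 bp between 46408569 and 46420280. That list placed 4 peaks wholly or partly there, 2 of which, at 46412979 to 46413504 and at 46414296 to 46414504, touched neither group. In U2OS, γ-tubulin had 21 peaks in the left group and 8 in the right, PCNA 26 and 5, and Mcm5 10 and 1. FoxM1 had 52 on the left and 24 on the right, and PCNA of shTUBG U2OS 17 and 8.

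FoxM1 at 9 h covered 24058 bp at the locus, 48.9% of its span. At 3 h it covered 16862 bp (34.3%), and in asynchronous cells and at 7 h 7.35% and 9.75%. By comparison, PCNA at 9 h covered 18.4% in shTUBG U2OS and 11.4% in U2OS, and γ-tubulin at 9 h in U2OS covered 14.1%. FoxM1 peaks at 3 and 9 h were also wide for their lists. At 9 h their median width was 696 bp at the locus and 346 bp in the rest of the list, and at 3 h 555 and 349 bp. At 7 h the medians were closer, with 385 bp at the locus and 350 bp in the rest. In asynchronous cells the order was the opposite, with 254 and 329 bp. The other lists of 9 h went both ways. The median was 303 bp at the locus and 393 bp elsewhere for γ-tubulin, and 285 and 380 bp for PCNA in U2OS. It was 386 and 361 bp for Mcm5, and 388 and 360 bp for PCNA in shTUBG U2OS. Of 80 FoxM1 peaks at the locus, 13 were over 1 kb wide. It was 3 of 31 for PCNA in U2OS, 1 of 29 for γ-tubulin, 1 of 25 for PCNA in shTUBG U2OS and 0 of 11 for Mcm5. Peaks over 1 kb were not counted in the rest of the lists.

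The stretch from 46390868 to 46392628 was called in 16 of the 17 lists, the exception being γ-tubulin in asynchronous cells. In 9 lists 1 peak of 946 to 1761 bp ran across it. These were γ-tubulin at 9 h, PCNA in asynchronous cells and at 3 and 9 h, Mcm5 at 9 h, FoxM1 at 3, 7 and 9 h and PCNA of shTUBG U2OS at 9 h. In 5 lists the stretch was split into 2 peaks. They were γ-tubulin at 3 h, Mcm5 in asynchronous cells and at 3 h, FoxM1 in asynchronous cells and PCNA of shTUBG U2OS in asynchronous cells. The gap between the peaks of a pair measured 54 to 71 bp and began between 46391722 and 46391731 in all 5 lists. In the other 2 lists the right part alone was called, with peaks of 304 bp each. γ-Tubulin at 7 h was placed at 46391931 to 46392234, and PCNA of shTUBG U2OS at 3 h 1 bp further left, at 46391930 to 46392233. The outer edges of the stretch varied more, with starts of the 9 single peaks between 46390868 and 46391319.

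**Figure D2:**
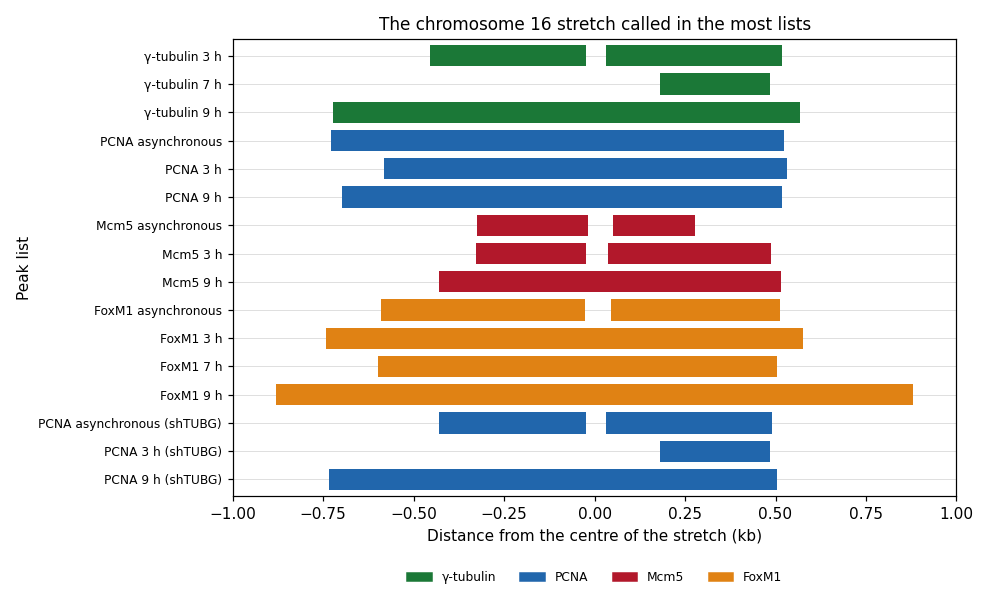
The stretch called in 16 lists, with each peak drawn to scale against the distance in kb from its centre and coloured by antibody. A single peak spans the stretch in 9 lists, 2 peaks with a gap of 54 to 71 bp are seen in 5 lists, and the right part alone in 2 lists.

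The region at 46403334 to 46403908 followed with 14 lists. It held the sole γ-tubulin peak of asynchronous U2OS, at 46403586 to 46403793, which had the lowest score of its list (rank 102 of 102). At 9 h the FoxM1 peak there was rank 17 of 244, the highest rank at the locus. PCNA at the same time was rank 25 of 130 in U2OS and rank 23 of 155 in shTUBG U2OS, γ-tubulin was rank 38 of 153, and Mcm5 was rank 57 of 109. In all 17 lists the highest-ranked peak of the locus was in this region (8 lists) or in the stretch called in 16 lists (9 lists).

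Among the other widely called regions, 46392909 to 46393543 was called in 12 lists. The median percentile of its peaks was low, at 15.4, where the percentile of a score within its list is 100 at the highest. FoxM1 was above the median of its list there at 3 h and at 9 h, when it was rank 33 of 244. The region at 46394389 to 46396254 was called in 10 lists and held the widest peak, the 1866 bp peak of FoxM1 at 9 h. Under that peak lay 3 FoxM1 peaks of 3 h, 2 γ-tubulin peaks of 9 h and 2 PCNA peaks of shTUBG U2OS at 9 h. The region at 46423554 to 46425278 was the most widely called of the right group, also in 10 lists. There, 1 FoxM1 peak of 1725 bp at 9 h took in 3 PCNA peaks of shTUBG U2OS and 2 γ-tubulin peaks of the same time.

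In 9 of the 30 regions FoxM1 was the sole antibody, and in 6 of these it was called at 9 h alone. By position, the first 5 of the 9 began at 46386368, 46389139, 46402836, 46405615 and 46412979. The second and the fourth were also called at 3 h. The 9 h peak at 46389139 to 46390221 was 1083 bp wide and rank 62 of 244, and that at 46405706 to 46406092 was rank 63. The one at 46386368 to 46386582 was rank 227, so regions with FoxM1 alone lay both above and below the median of the list.

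On the chromosome 9 scaffold, 49 peaks from 10 lists lay between 34308 and 168519. They were narrow, with widths of 200 to 423 bp and a median of 257 bp, and none was over 1 kb. They formed 19 regions, of which 8 were called in 1 list. FoxM1 at 9 h was called in 18 regions and at 3 h in 10, and 13 regions had FoxM1 alone, 7 of them at 9 h alone. Pooled over times and lines, PCNA was called in 5 regions, γ-tubulin in 4 and Mcm5, in U2OS alone, in 3. The 3 regions with Mcm5 held all 4 proteins.

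**Figure D3:**
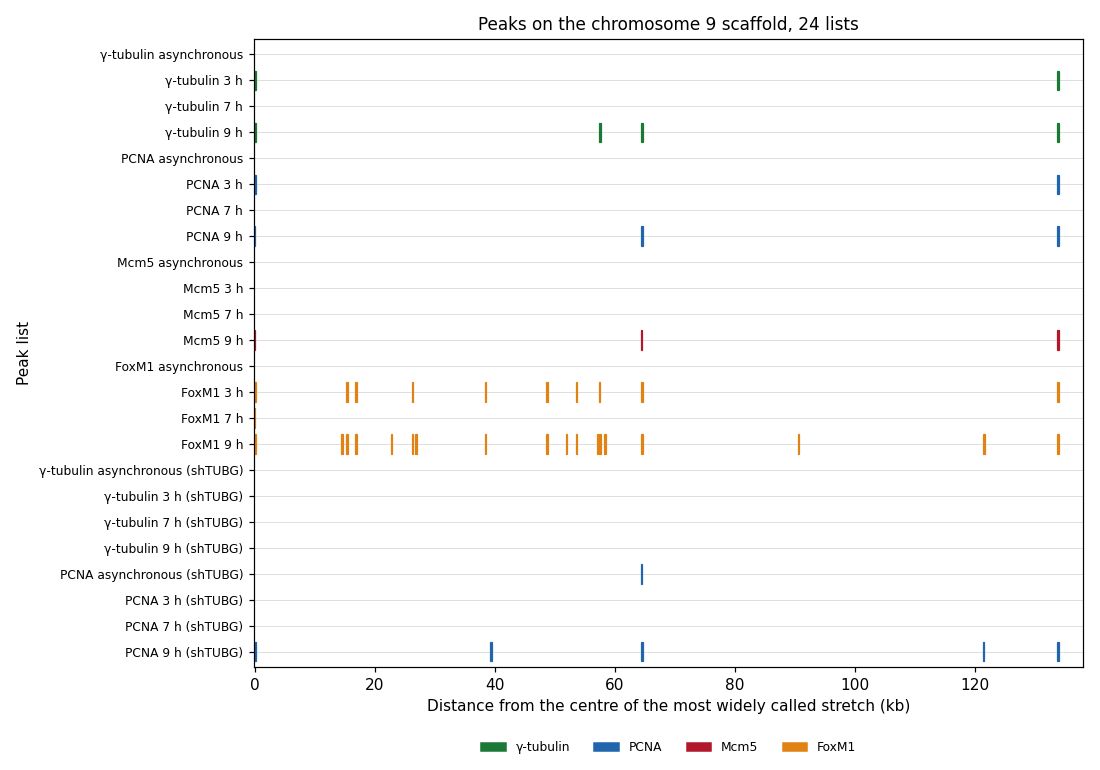
Peaks on the chromosome 9 scaffold in each of the 24 lists, against the distance in kb from the centre of the region called in the most lists. Colours mark the antibody, and the marks are outlined so that peaks of 200 to 423 bp can be seen at this scale. Some positions, foremost 3 that hold all 4 proteins, recur across antibodies, and the other marks are mostly of FoxM1 at 3 and 9 h.

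The scaffold region at 34308 to 34612 was called in 9 lists. Its 9 peaks had starts within 65 bp and ends within 51 bp of each other. FoxM1 was found there at 3, 7 and 9 h with ranks 15 of 202, 13 of 123 and 19 of 244. PCNA of U2OS was rank 21 of 104 at 3 h and rank 20 of 130 at 9 h, and PCNA of shTUBG U2OS at 9 h was rank 19 of 155. γ-Tubulin was rank 21 of 123 at 3 h and rank 26 of 153 at 9 h, and Mcm5 at 9 h was rank 21 of 109. All 9 peaks had percentiles from 80.8 to 93.1, although none was wider than 305 bp.

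The other scaffold regions shared by all antibodies lay further along the sequence. The region at 98818 to 99130 was called in 7 lists, and its peaks lay between the percentiles 70.1 and 88.1. It held the single scaffold peak of asynchronous cells, that of PCNA in shTUBG U2OS at 98835 to 99049, rank 27 of 87. The region at 168097 to 168519 was called in 8 lists, with percentiles from 44.1 to 80.7, and held the widest scaffold peak, of FoxM1 at 9 h. The fourth most widely called region, at 91796 to 92137, was called for FoxM1 at 3 and 9 h and for γ-tubulin at 9 h. The scaffold regions not named so far were called for FoxM1 at 3 or 9 h, for PCNA of shTUBG U2OS at 9 h, or for both. PCNA of shTUBG U2OS had a peak of its own at 73723 to 73922 and shared 155793 to 156123 with FoxM1.

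Between 48883 and 92914, FoxM1 had 13 scaffold peaks at 9 h and 7 at 3 h, γ-tubulin and PCNA of shTUBG U2OS had 1 each at 9 h, and Mcm5 and PCNA of U2OS had none. The first 5 regions with FoxM1 alone, in order of position, began at 48883, 49699, 51142, 57123 and 60636. Their 9 h peaks ranked from 92 to 177 of 244. The 3 of them that were also called at 3 h ranked from 154 to 191 of 202.

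The members were unevenly spread over time. Counting all antibodies and both lines, 122 of 858 peaks (14.2%) at 9 h lay at the loci, 64 of 645 (9.92%) at 3 h and 12 of 311 (3.86%) at 7 h. In asynchronous cells it was 27 of 628 (4.30%). Of the 12 at 7 h, 11 were of FoxM1 and 1 of γ-tubulin. On the scaffold, 33 of 49 peaks were called at 9 h and 14 at 3 h. In U2OS the lists of γ-tubulin, Mcm5 and FoxM1 were also the longest at 3 and 9 h. A list with more reads can hold more peaks, and the part of depth in these values was not tested.

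With both loci added, FoxM1 had a larger share of its peaks there than any other list of the same time. In asynchronous cells it was 12 of 129 peaks (9.30%, 95% Clopper-Pearson interval 4.90 to 15.7). After release it was 48 of 244 (19.7%, 14.9 to 25.2) at 9 h and 38 of 202 (18.8%, 13.7 to 24.9) at 3 h, with 11 of 123 (8.94%, 4.55 to 15.4) in between, at 7 h. PCNA in U2OS had its largest share at 9 h, 18 of 130 (13.8%, 8.42 to 21.0). It had 10 of 104 (9.62%, 4.71 to 17.0) at 3 h, 0 of 17 at 7 h, and 8 of 118 (6.78%, 2.97 to 12.9) when asynchronous. γ-Tubulin had 22 of 153 (14.4%) at 9 h, 11 of 123 (8.94%) at 3 h, 1 of 75 (1.33%) at 7 h and, without synchronization, 1 of 102 (0.980%). Mcm5 had 8 of 109 (7.34%), 4 of 132 (3.03%), 0 of 29 and 2 of 98 (2.04%) in that order. At 7 h, 3 counts would be a share of 17.6% for the 17 peaks of PCNA and 10.3% for the 29 of Mcm5. At 3 and 9 h the FoxM1 interval lay above that of Mcm5 and overlapped those of PCNA and γ-tubulin. On chromosome 16 alone the shares at 9 h were close, with 12.3% for FoxM1, 11.8% for γ-tubulin and 11.5% for PCNA in U2OS, and 13.5% for PCNA in shTUBG U2OS. On the scaffold at 9 h they were 7.38% for FoxM1, 2.61% for γ-tubulin and 2.31% for PCNA in U2OS, and 3.23% for PCNA in shTUBG U2OS.

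Summed over times in U2OS, the share was 15.6% for FoxM1 (109 of 698), 9.76% for PCNA (36 of 369), 7.73% for γ-tubulin (35 of 453) and 3.80% for Mcm5 (14 of 368). FoxM1 exceeded γ-tubulin by 7.89 percentage points (95% interval 4.02 to 11.6), PCNA by 5.86 points (1.50 to 9.92) and Mcm5 by 11.8 points (8.20 to 15.2). Intervals cover counting error and treat peaks as independent, which neighbouring peaks are not. When peaks of a list within 1000 bp were merged, the difference from PCNA turned to -3.26 points (-10.7 to 3.39), and that from γ-tubulin was 3.85 points with an interval that included 0 (-1.83 to 9.10).

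**Figure D4:**
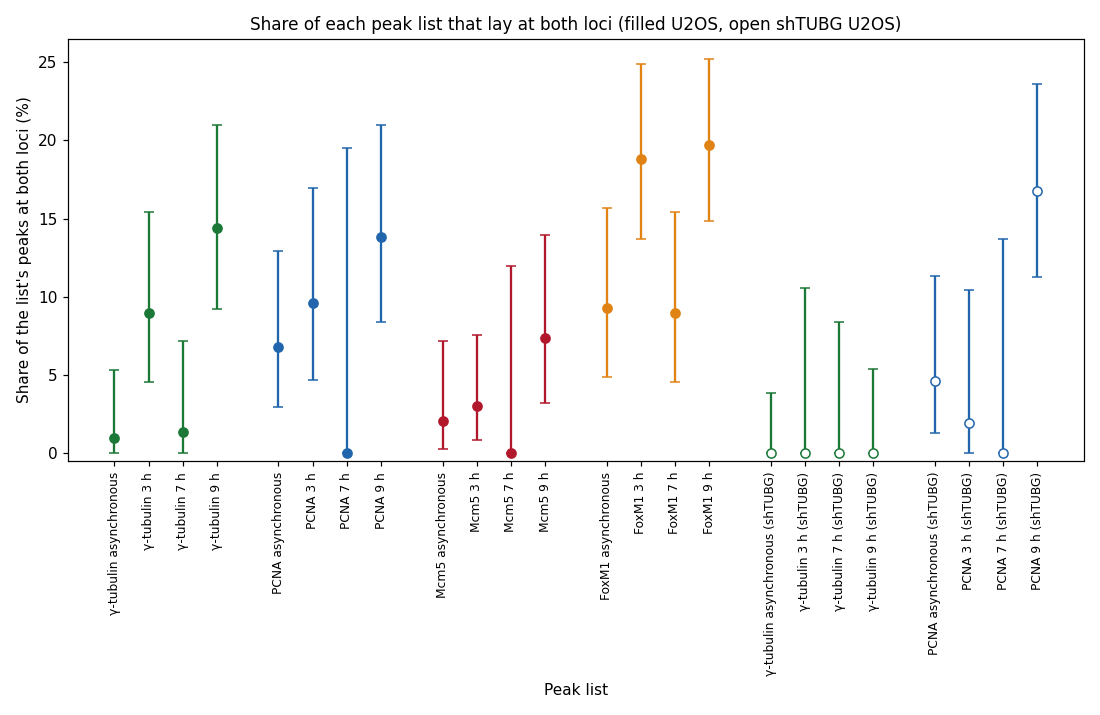
Share of each list's peaks that lay at both loci, in percent, with 95% Clopper-Pearson intervals for counting error. Filled points are U2OS and open points shTUBG U2OS, coloured by antibody. FoxM1 at 3 and 9 h had the highest points, at 18.8% and 19.7%, and all 4 lists of γ-tubulin in shTUBG U2OS were at 0.

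To see whether lowering γ-tubulin was accompanied by other calls at these loci, both lines were compared. In shTUBG U2OS, γ-tubulin had 0 of 236 peaks at the loci, which allows a share of up to 1.27% by a limit of 3 counts and up to 1.55% by the Clopper-Pearson interval. By list, with the limit of 3 counts, this was 0 of 94 when asynchronous, which allows up to 3.19%, and 0 of 33, 0 of 42 and 0 of 67 after release for 3, 7 and 9 h, which allows up to 9.09%, 7.14% and 4.48%. The difference from U2OS, shTUBG U2OS minus U2OS, was -7.73 points over all times (-10.6 to -4.96) and -14.4 points at 9 h (-21.0 to -6.95). At 3 h it was -8.94 points with an interval that reached 2.51. In asynchronous cells and at 7 h U2OS itself had 1 peak, so a fall could hardly be seen there. These intervals also treat peaks as independent, and the differences between the lines were not tested.

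For PCNA the lines differed in both directions. In asynchronous cells 4 of 87 peaks (4.60%) of shTUBG U2OS lay at the loci, -2.18 points from U2OS (-9.17 to 5.57). At 3 h it was 1 of 51 (1.96%) compared with 10 of 104 in U2OS, a difference of -7.65 points (-15.3 to 2.15). At 7 h neither line had a peak at the loci. The lists then held 17 peaks in U2OS and 25 in shTUBG U2OS, of which 3 counts would be 17.6% and 12.0%. At 9 h it was 26 of 155 (16.8%) compared with 18 of 130, a difference of 2.93 points (-6.10 to 11.7). Each of these intervals included 0.

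At 9 h, 14 of the 18 PCNA peaks of U2OS (11 of 15 on chromosome 16, 3 of 3 on the scaffold) overlapped a PCNA peak of shTUBG U2OS by at least 25% of both peaks. These were 14 of the 26 peaks of shTUBG U2OS. In 12 of the 14 pairs the peak of shTUBG U2OS was wider, by a median of 70 bp over all pairs, and in 12 it had a higher percentile, by a median of 8.29. The pair with the largest difference in percentile was in the right group. The U2OS peak at 46424541 to 46424959 was rank 122 of 130, and the shTUBG U2OS peak at 46424565 to 46425194 was rank 76 of 155. At the top of the lists the lines were closer, with rank 32 of 130 and rank 31 of 155 at the stretch called in 16 lists. How far depth entered into these differences was not tested. Overlap, width and percentile were not compared between the lines for the other PCNA peaks of 9 h. Whether the loci differ from the rest of these lists is therefore not known.

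Of the chromosome 16 regions, PCNA at 9 h was called in 12 in both lines, in 2 in U2OS alone and in 6 in shTUBG U2OS alone. The 2 of U2OS were at 46386783 to 46387600, where the PCNA peak was rank 113 of 130, and at 46398107 to 46398511, where it was rank 107. Both were low in the list. The first 3 regions of shTUBG U2OS alone were at 46393772 to 46394308, 46401402 to 46402200 and 46404877 to 46405526, with PCNA ranks 138, 119 and 142 of 155. The middle one had also been called for PCNA of U2OS in asynchronous cells (rank 87 of 118) and at 3 h (rank 81 of 104). On the scaffold, the 3 regions of U2OS were also found in shTUBG U2OS, which had 2 more.

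At the loci, most FoxM1 peaks of 3 h recurred at 9 h. Of 38 peaks at 3 h, 36 overlapped a 9 h peak by at least 25% of both, 26 of 28 on chromosome 16 and 10 of 10 on the scaffold. The other 2, at 46395106 to 46395469 and 46395693 to 46396103, lay inside the 1866 bp peak. Of the 36 pairs, which held 34 different peaks of 9 h, the 9 h peak was wider in 33, with a median difference of 151.5 bp. It was higher in percentile in 33. The lists held 202 and 244 peaks, and the part of list length and depth in these differences was not tested. The same counts were not made for the other FoxM1 peaks of these lists, so whether the loci differ from them is not known. On chromosome 16 the median percentile of FoxM1 was 69.7 at 9 h and 48.5 at 3 h, and lower at 7 h (18.1) and in asynchronous cells (24.6). At 9 h, 22 of its 30 peaks were above the median of the list. The scaffold order of the same 2 lists was less far apart, with medians of 30.1 at 3 h and 42.4 at 9 h.

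The study took Mcm5 peaks that overlap PCNA by at least 25% of both as active origins. By this measure 12 of the 14 Mcm5 peaks at the loci had PCNA (85.7%, 95% interval 57.2 to 98.2), and 205 of the 354 other Mcm5 peaks of the lists did (57.9%, 52.6 to 63.1). These intervals overlapped. Of the 354, 29 were of 7 h, when all PCNA peaks of U2OS were mitochondrial, compared with 0 of the 14. Shares without 7 h were not computed. All 12 Mcm5 peaks with PCNA at the loci also overlapped γ-tubulin of the same time, and 10 of them overlapped FoxM1. These overlaps were not counted here for the other Mcm5 peaks with PCNA. Across its samples, the study reported γ-tubulin at nearly all active origins and FoxM1 at a smaller share, so these counts are not particular to the loci. In asynchronous cells the 2 Mcm5 peaks lay wholly within a PCNA peak of 1250 bp, at 46391021 to 46392270. The Mcm5 peak at 46391423 to 46391730 took up 24.6% of it and that at 46391801 to 46392025 18.0%, so neither met the limit. With overlap by 1 bp, all 14 had PCNA. The 2 Mcm5 peaks that had PCNA but missed FoxM1 were likewise inside wide peaks, of 1319 bp at 3 h and 1725 bp at 9 h, of which they took up 23.1% and 13.4%.

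At the same time and in the same line, 22 of 35 γ-tubulin peaks (62.9%) overlapped PCNA by at least 25% of both peaks, 14 of 22 of them at 9 h and 7 of 11 at 3 h. At 9 h the count was the same with overlap by 1 bp and by 50%. Among the other γ-tubulin peaks of the lists it was 215 of 418 (51.4%), which lies within the interval of the members (44.9 to 78.5). For FoxM1 it was 29 of 109 (26.6%, 18.6 to 35.9), and 12 of 48 at 9 h. The other FoxM1 peaks gave 230 of 589 (39.0%), or 172 of 523 (32.9%) without mitochondrial peaks. These totals mix times unequally. At 7 h all PCNA peaks of U2OS were mitochondrial, so nuclear peaks of that time could not overlap PCNA. Of that time were 74 of the 418 other γ-tubulin peaks and 1 of the 35 members. For FoxM1 these were 112 of the 589 and 11 of the 109. Shares without 7 h were not computed. Read from the PCNA side, all 18 PCNA peaks of U2OS at 9 h touched a FoxM1 peak by 1 bp, and 12 of the 18 met the 25% limit. At the loci, FoxM1 thus had calls wherever PCNA of U2OS had them at 9 h, and many more besides. FoxM1 covered 48.9% of the chromosome 16 span at that time, so a touch by 1 bp is easily met there. The rest of the PCNA list was not counted in this way. In shTUBG U2OS, the PCNA peak of 9 h at 73723 to 73922 on the scaffold touched no FoxM1 peak.

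The scores, whose meaning was not stated, were used only as ranks within a list. The median percentile was 30.8 on chromosome 16, where 52 of 176 peaks were above the median of their list. On the scaffold it was 55.3, with 27 of 49 above the median. When the FoxM1 lists were left out, the medians moved apart, to 21.0 on chromosome 16 and 70.8 on the scaffold. Apart from FoxM1, the scaffold had few peaks, mostly in the 3 regions that held all 4 proteins, each counted again in several lists. The regions at 34308 to 34612 and 98818 to 99130 had percentiles of at least 70.1 in each list that called them. Scaffold peaks of PCNA or γ-tubulin outside the 3 regions were low, with percentiles of 32.3, 23.9 and 12.9. Chromosome 16 had 2 high regions among many low ones.

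**Figure D5:**
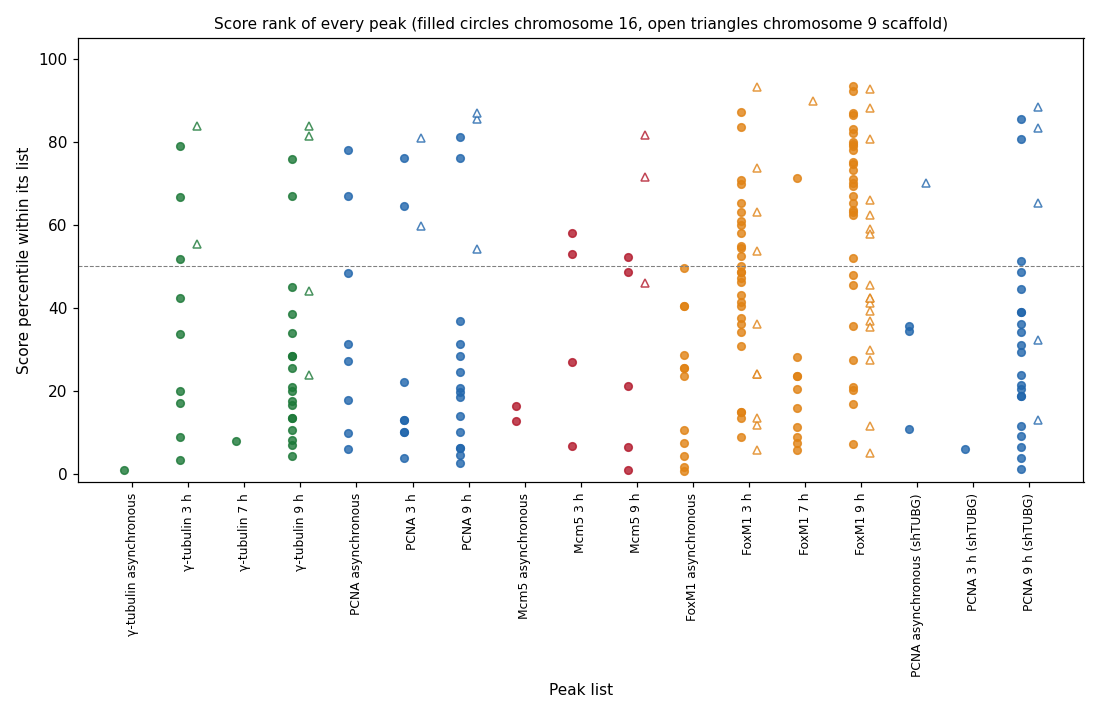
Score percentile of each member within its own list, where 100 is the highest score and the dashed line marks 50. Filled circles are peaks of chromosome 16 and open triangles those of the scaffold, coloured by antibody. In lists other than FoxM1 at 3 and 9 h, most circles lie below 50, whereas most triangles lie above it.

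For comparison, the clusters with the most peaks on chromosomes 10 and 2 were counted in the same lists. They reached from 42360689 to 42409437 on chromosome 10 (242 peaks) and from 92268981 to 92326127 on chromosome 2 (210 peaks), each in 19 lists. γ-Tubulin of asynchronous U2OS, with 0.980% of its peaks at the loci described here, had 14.7% on chromosome 10 and 4.90% on chromosome 2. At 7 h it had 1.33% here, 21.3% on chromosome 10 and 2.67% on chromosome 2. PCNA of shTUBG U2OS at 3 h had 1.96% here, 27.5% on chromosome 10 and 3.92% on chromosome 2. FoxM1 at 9 h had 12.3% on chromosome 16 and 7.38% on the scaffold, compared with 4.10% on chromosome 10 and 10.7% on chromosome 2. At 3 h it had 13.9% on chromosome 16 and 12.9% on chromosome 2. Summed over times, FoxM1 minus γ-tubulin was 5.06 points on chromosome 16 (1.56 to 8.38), 2.83 points on the scaffold (0.782 to 4.78), -4.48 points on chromosome 10 (-8.36 to -0.820) and -1.43 points on chromosome 2 (-5.23 to 2.16). In shTUBG U2OS, γ-tubulin had no peak in either cluster in asynchronous cells, at 3 h or at 7 h, and at 9 h it had 7 on chromosome 10 and 1 on chromosome 2. Over all times the γ-tubulin difference, shTUBG U2OS minus U2OS, was -9.40 points on chromosome 10, -10.2 points on chromosome 2 and -7.73 points here. In that order, the shares of U2OS were 12.4%, 10.6% and 7.73%, and those of shTUBG U2OS 2.97%, 0.424% and 0. The fall in points cannot exceed the share in U2OS, and it did not follow the order of those shares. Here no peak was left. At 9 h the chromosome 10 share was 10.4% in shTUBG U2OS and 9.80% in U2OS. Shares of a list are not independent of each other, and the differences between places were not tested.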

How the data were processed

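ChIP-seq peak lists were analysed for 24 groups of 2 samples each (48 of 64 samples). The other 16 are input chromatin, which was not used here. Per the submitters' processing notes, Bowtie2 2.1.0, SAMtools 1.7-13 and MACS2 were used with the build hg19. How the samples of a group and the input were combined, and how duplicate and multiply mapped reads were treated, is not given in the sources used here. Each list deposited by the authors gives a chromosome, a start, an end and a whole-number score (16 to 944 in all lists), whose meaning was not stated. Read depth is unknown.

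Positions are printed counted from 1. Scores were ranked within a list, with ties sharing the mean rank for percentiles and the highest for ranks. As in the study, an overlap had to cover 25% or more of both peaks, and regions were peaks of all lists merged where they shared 1 bp. Compared clusters join peaks within 100 kb. Shares carry 95% Clopper-Pearson intervals, and intervals of differences combine these limits by Newcombe's method. For a count of 0 at both loci, the share that 3 counts would give is printed as well. No test was run, since each group has 1 list. At each locus, the regions named were the 5 called in the most lists, up to 5 called for PCNA at 9 h in 1 line only, up to 5 with FoxM1 alone in order of position, and those with the widest and the highest-ranked peak. Other peaks named, and the Mcm5 peaks set against the 25% limit, were chosen after their values were seen. Members, lists and comparisons were chosen with earlier results of these data known. Counts of overlaps and regions were tested on simulated data. Alternatives were overlap by 1 bp or 50%, peaks whose score reached the median of the list, peaks within 1000 bp merged, no mitochondrial peaks, chromosomes 1 to 22 and X with the scaffold, a window wider by 1 Mb on each side, other ranking of ties, and each time left out. Python 3.11.15, numpy 2.4.6, scipy 1.17.1 and matplotlib 3.10.9 were used.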

Additional observations from a re-analysis of the deposited data

Results flagged for a closer look

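The share of PCNA peaks at both loci differed between the lines in opposite directions at different times. The difference, shTUBG U2OS minus U2OS, was -2.18 percentage points in asynchronous cells and -7.65 points at 3 h, but 2.93 points at 9 h. There was 1 list per line and time, so the difference between times was not tested, and each of the 3 intervals included 0. The length of the whole PCNA list moved in the same directions. U2OS and shTUBG U2OS had 118 and 87 peaks when asynchronous, 104 and 51 at 3 h, and 130 and 155 at 9 h. The part of list length in the shares was not tested.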

How the results depend on the processing

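No paired analysis was possible because 1 list stands for both samples of a group, without replicate numbers. Nor could a replicate be left out. Of 115 alternative values of 22 results, 91 stayed close to the reported value (counts within 1.5 times, shares, differences and medians within the interval of the reported value). The difference in the PCNA share between the lines, shTUBG U2OS minus U2OS, was -0.00767 points and changed sign without asynchronous cells (0.533 points), without 3 h (1.42) and without 7 h (0.353). It was -5.87 points with peaks within 1000 bp merged. Merging also turned the difference of FoxM1 minus PCNA to -3.26 points, brought FoxM1 minus γ-tubulin to 3.85 points (-1.83 to 9.10) and the PCNA share in U2OS to 17.4%, and left 93 peaks on chromosome 16. Merging across lists left 6 chromosome 16 regions of 30. With peaks whose score reached the median of the list, which removes peaks by construction, 54 peaks on chromosome 16, 27 on the scaffold and 7 scaffold regions were left. The share was then 3.91% for γ-tubulin and 5.91% for PCNA in U2OS, and 4.32% for PCNA in shTUBG U2OS, and the γ-tubulin difference between the lines was -3.91 points. Without 9 h, the γ-tubulin share in U2OS was 4.33%, its difference between the lines -4.33 points, and the PCNA share of shTUBG U2OS 3.07%. On chromosomes 1 to 22, X and the scaffold, shares were 15.3% for PCNA and 19.9% for FoxM1 in U2OS, since peaks elsewhere left the total. Chosen after the data were seen, leaving out FoxM1 at 9 h left 12 scaffold regions of 19, and leaving out all FoxM1 lists gave median percentiles of 21.0 on chromosome 16 and 70.8 on the scaffold. With 1 list per group, read depth, replicate spread and the placement of reads from repeats limit these values, and none of them could be measured.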

Other observations

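The 2 chromosome 16 peaks outside the window were of FoxM1 at 9 h. They were at 1003860 to 1004059 with rank 229 of 244 and at 13037041 to 13037242 with rank 195.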
